A study of Mus musculus with 4 samples.

Results

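The insulin-like growth factor (IGF) binding proteins of cultured mouse myoblasts are described here, with the IGF ligand and receptors that go with them. A rule by name chose 9 genes: Igfbp3, Igfbp2, Igfbp4, Igfbp5, Igfbp6, Igfbp7, Igf1, Igf1r and Igf2r. Of these, 7 were among the 3760 genes of the deposited table, and 4 of the 6 binding proteins were. Igfbp4 and Igfbp6 are not listed there and were not analysed. The table was itself selected on measured values: each listed gene reached 10 CPM (its reads scaled to a common library total) in at least 2 libraries and differed by at least 2-fold from the GFP growth medium library in at least 1 of 3 comparisons. In the authors' deposited table the largest of those 3 absolute log2 ratios ran from 1.38 for Igf1r, the member nearest to that limit, to 2.82 for Igfbp5. Igfbp3 was picked for its pattern in these libraries, so all values are given as a description.

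The cells were myoblasts grown out of skeletal muscle of adult C57BL/6 mice and called twist2+ in the labels. They received a retrovirus for 24 h, carrying either Twist2-IRES-GFP or GFP alone. After a day in growth medium (GM) with 20% fetal bovine serum they were harvested, or they were moved to differentiation medium (DM) with 2% horse serum and taken 5 days later. The 4 groups, with 1 library each, were Twist2 DM, GFP DM, Twist2 GM and GFP GM. The labels do not say how many animals or cultures stand behind a library, and both arms carry a viral GFP. Twist2 is a basic helix-loop-helix transcription factor.

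With 1 library per group no difference has a replicate check and no test was possible. An effect of the library and an effect of the condition cannot be told apart. The libraries held 9235281 to 12362290 reads, and the listed genes took 36.9% to 65.1% of them. Twist2 stood at 674 CPM in Twist2 DM and 0 CPM in GFP DM, where 3 reads would be 0.325 CPM, and at 1438 CPM in Twist2 GM and 0.103 CPM (1 read) in GFP GM. In both GFP libraries Twist2, the gene in the label twist2+, was thus under the limit of 3 reads. Of 8 myoblast markers 6 are listed, among them Myod1 (547 to 1184 CPM) and Pax7 (4.01 to 78.7 CPM), while Myf5 and Myf6 are not. None of the 15 endothelial, immune and Schwann cell markers is in the table. Of 10 names chosen for fibro-adipogenic progenitors or fibroblasts, 7 are not in it either, Pdgfra among them. A marker that changed by less than 2-fold or stayed under 10 CPM would be missing alike. These cell types can therefore not be called absent.

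IGF-I and IGF-II are secreted growth factors that signal through the receptor tyrosine kinase IGF1R, while IGF2R, the mannose-6-phosphate receptor, takes up IGF-II for degradation and does not signal as a kinase. The binding proteins hold the ligands in the extracellular fluid and on the matrix, and can keep them from the receptor or release them to it when proteases cut the binding protein. In skeletal muscle, IGFs promote both the proliferation and the differentiation of myoblasts, and mouse muscle cell lines are known to secrete IGFBP-5 as they differentiate.

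The 300 bases around the annotated starts of 4 members are shown because 3 of these genes (Igfbp3, Igfbp5 and Igf1) were far lower with Twist2 in GM, and Igfbp7 was not. The choice was made by these ratios, and Igfbp2, also lower there (log2 ratio -1.12), is not shown. Basic helix-loop-helix factors bind E-boxes, written CANNTG, a motif that reads the same on both strands. Capitals mark every match. The sequences are from RefSeq on GRCm38.p6, run 5′ to 3′ on the gene's strand, and cover 250 bases before to 50 bases after the start. Igfbp3 lies at chr11:7213874-7214173 (minus strand), Igfbp5 at chr1:72874816-72875115 (minus), Igf1 at chr10:87860861-87861160 (plus) and Igfbp7 at chr5:77407996-77408295 (minus).
Igfbp3: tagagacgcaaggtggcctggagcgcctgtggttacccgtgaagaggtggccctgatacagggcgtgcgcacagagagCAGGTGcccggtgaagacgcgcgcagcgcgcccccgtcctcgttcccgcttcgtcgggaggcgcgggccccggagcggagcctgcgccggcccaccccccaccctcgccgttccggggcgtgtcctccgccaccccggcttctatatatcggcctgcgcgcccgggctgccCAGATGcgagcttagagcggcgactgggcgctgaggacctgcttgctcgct
Igfbp5: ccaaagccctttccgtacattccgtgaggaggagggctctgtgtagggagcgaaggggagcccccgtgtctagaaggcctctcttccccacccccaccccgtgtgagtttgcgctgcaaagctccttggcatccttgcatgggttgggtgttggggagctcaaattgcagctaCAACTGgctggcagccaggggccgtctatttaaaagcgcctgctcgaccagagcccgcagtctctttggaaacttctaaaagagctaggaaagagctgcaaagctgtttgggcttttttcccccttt
Igf1: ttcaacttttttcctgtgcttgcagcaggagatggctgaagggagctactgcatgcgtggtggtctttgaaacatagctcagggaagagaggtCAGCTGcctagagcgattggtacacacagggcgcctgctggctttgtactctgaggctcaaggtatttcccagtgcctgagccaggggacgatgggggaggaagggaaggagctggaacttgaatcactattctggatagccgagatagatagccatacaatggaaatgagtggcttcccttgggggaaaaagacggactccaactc
Igfbp7: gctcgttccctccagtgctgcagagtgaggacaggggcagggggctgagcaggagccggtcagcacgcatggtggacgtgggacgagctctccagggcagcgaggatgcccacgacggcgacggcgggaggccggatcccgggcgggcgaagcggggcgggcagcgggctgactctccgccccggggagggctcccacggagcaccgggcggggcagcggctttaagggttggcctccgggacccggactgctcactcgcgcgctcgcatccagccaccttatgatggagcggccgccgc

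All 7 listed members had at least 1 RefSeq window, and Igfbp2 had 2. Igfbp3 holds 2 matches, CAGGTG with its first base 172 bases before the start and CAGATG that begins 1 base before it. Igfbp5 holds CAACTG, whose first base is 77 bases before the start, and Igf1 holds CAGCTG, 157 bases before the start of its window. That Igf1 window lies inside the annotated gene, which begins upstream at 87858265, and the upstream start is not shown. Which start these cells used was not tested. The Igfbp7 and Igf1r windows hold none, the Igfbp2 windows hold 1 and 2, and the Igf2r window holds 4, the most among the members. With Twist2 in GM, Igf2r (log2 ratio -0.16) and Igf1r (-0.07) were within 2-fold and Igfbp2 (-1.12) was lower. Matches are common: of all 32851 mouse windows of this length 72.3% hold at least 1, 39.6% at least 2 and 6.49% at least 4, and of the 3729 windows of listed genes 64.3%, 30.4% and 3.78% do. A match describes the letters and is not a bound site. The windows also differ in base composition, with 37 CG pairs in Igfbp3, 33 in Igfbp7, 10 in Igfbp5 and 6 in Igf1, where the median is 7 over all windows and 21 over those of listed genes.

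Igfbp3 encodes IGFBP-3, the main carrier of IGFs in blood, which many cell types also secrete locally. The gene (ENSMUSG00000020427.11) spans 7206086 to 7213923 on chromosome 11 in GRCm38, minus strand, and no other annotated gene overlaps it. It stood at 1553 CPM in Twist2 DM and 121 CPM in GFP DM, and at 47.3 CPM in Twist2 GM and 308 CPM in GFP GM. Twist2 DM was thus the highest library and Twist2 GM the lowest, with the GFP libraries in between. After differentiation the level was 12.8-fold higher with Twist2, a log2 ratio of 3.67 on the scale of CPM + 1. The 95% counting interval, taken on the reads without that added 1, was 3.59 to 3.77. Before differentiation it was 6.51-fold lower with Twist2 (log2 ratio -2.68, counting interval -2.84 to -2.57). All such intervals cover counting error only and hold no spread between cultures. They take each read as independent, while the labels describe no molecular identifiers that would separate PCR copies. They may thus be too narrow even for counting error.

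Igfbp5 encodes IGFBP-5, the binding protein of muscle cells named above. It (ENSMUSG00000026185.8) spans 72857932 to 72874884 on the minus strand of chromosome 1. With 16858 CPM in Twist2 DM and 4025 CPM in GFP DM, and 813 CPM in Twist2 GM and 5739 CPM in GFP GM, it ordered the 4 libraries by CPM as Igfbp3 did. The order of the GFP libraries depends on scaling. With scaling to reads outside the table, GFP DM over GFP GM was 0.29 for Igfbp5 and -0.55 for Igfbp3. It was 4.19-fold higher with Twist2 in DM (log2 ratio 2.07, counting interval 2.05 to 2.08) and 7.06-fold lower with Twist2 in GM (log2 ratio -2.82, counting interval -2.85 to -2.79). In Twist2 DM this gene alone held 208408 reads.

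Igfbp2 encodes IGFBP-2, which favours IGF-II. Its gene (72824503 to 72852474, plus strand of chromosome 1) ends 5457 bases from the end of Igfbp5, and the genes point at each other. The neighbours did not share a pattern. Igfbp2 stood at 208 CPM in Twist2 DM and 135 CPM in GFP DM, and at 167 CPM in Twist2 GM and 363 CPM in GFP GM. It was lower with Twist2 in GM (log2 ratio -1.12, counting interval -1.21 to -1.04), within 2-fold in DM (0.62), and its highest library was GFP GM rather than Twist2 DM. Igfbp1, the neighbour of Igfbp3 across a gap of 3539 bases, is not listed.

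Igfbp7 encodes a secreted relative that binds IGFs with low affinity. The gene (77349240 to 77408041, minus strand of chromosome 5) overlaps Polr2b and Gm34648 in the annotation, and the strand setting of the counting is not given in the sources used here. It stood at 162 CPM in Twist2 DM and 28.0 CPM in GFP DM, and at 58.1 CPM in Twist2 GM and 35.3 CPM in GFP GM. It was 5.79-fold higher with Twist2 in DM (log2 ratio 2.49, counting interval 2.35 to 2.72) and within 2-fold in GM (0.70, counting interval 0.53 to 0.91). Igfbp7 was the one listed binding protein that was not lower with Twist2 in GM.

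**Figure D1:**
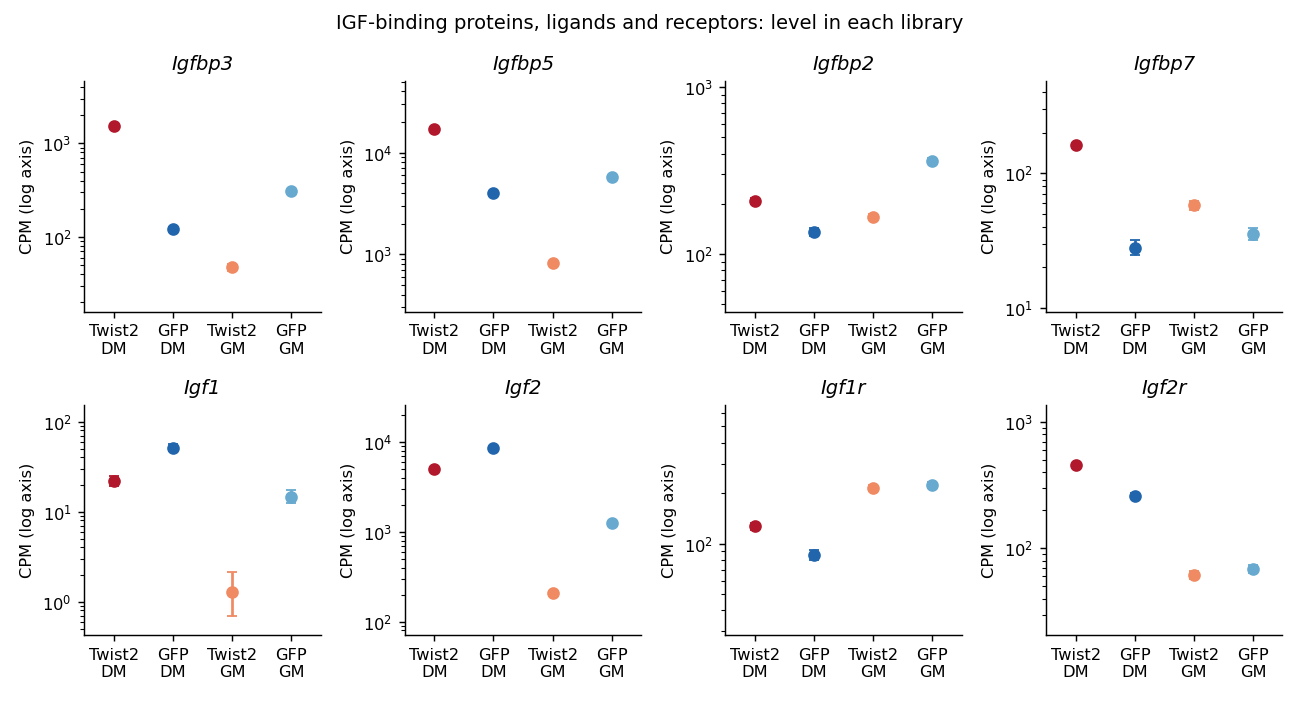
Level of 8 genes of the IGF system in each library, in CPM on a log axis (DM, differentiation medium; GM, growth medium); points are single libraries and bars are 95% counting intervals. Igfbp3 and Igfbp5 are highest in Twist2 DM (1553 and 16858 CPM) and lowest in Twist2 GM (47.3 and 813 CPM), Igfbp7 is highest in Twist2 DM, and Igf1 and Igf2 are highest in GFP DM.

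Markers of cell state differed between the same libraries. The 8 myotube markers summed to 9335 CPM in Twist2 DM and 57273 CPM in GFP DM, and to 39.8 CPM in Twist2 GM and 391 CPM in GFP GM. The 6 listed myoblast markers summed to 9517 CPM in Twist2 DM and 16209 CPM in GFP DM, and to 2700 CPM in Twist2 GM and 5960 CPM in GFP GM. In DM the sum was set by Des, Itga7 and Chrna1. These were themselves higher in DM than in GM, with log2 ratios of 2.11, 1.69 and 1.55 in GFP cells and 2.01, 2.02 and 2.14 in Twist2 cells. The progenitor marker Pax7 was higher with Twist2 in DM, at 34.6 CPM in Twist2 DM and 4.01 CPM in GFP DM. In GM it was not, at 60.5 CPM in Twist2 GM and 78.7 CPM in GFP GM (log2 ratio -0.37). Myod1 stood at 1068 CPM in Twist2 DM and 810 CPM in GFP DM. It was lower with Twist2 in GM, at 547 CPM in Twist2 GM and 1184 CPM in GFP GM (-1.11). Of the names chosen for fibro-adipogenic progenitors or fibroblasts, 3 are listed, and they did not move together. The symbol Tcf4 names a basic helix-loop-helix gene that does not mark fibroblasts, so no sum is given. Tcf4 had 89.1 CPM in Twist2 DM and 172 CPM in GFP DM, and 95.4 CPM in Twist2 GM and 183 CPM in GFP GM. Dcn was higher with Twist2 in both media, at 64.6 CPM in Twist2 DM and 1.19 CPM in GFP DM, and at 10.6 CPM in Twist2 GM and 1.95 CPM in GFP GM. Ly6a had 3.32 CPM in Twist2 DM and 0 reads in GFP DM, and its higher levels were in GM, with 32.9 CPM in Twist2 GM and 10.98 CPM in GFP GM. The 3 listed pericyte or smooth muscle markers summed to 5075 CPM in Twist2 DM and 7999 CPM in GFP DM, and to 198 CPM in Twist2 GM and 413 CPM in GFP GM. Acta2 was most of that sum in each library (5050 CPM in Twist2 DM and 7948 CPM in GFP DM), and Rgs5 ran the other way, at 4.69 CPM in Twist2 DM and 0.108 CPM (1 read) in GFP DM, and at 85.1 CPM in Twist2 GM and 51.7 CPM in GFP GM. The part of these shifts in the levels of the binding proteins was not tested, and in bulk RNA fewer cells of a type and less RNA per cell cannot be told apart.

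The listed binding proteins together took 1.88% of all reads in Twist2 DM and 0.431% in GFP DM, and 0.108% in Twist2 GM and 0.645% in GFP GM. Igfbp5 made up 74.9% to 93.4% of that sum. Igfbp3 made up 8.27% in Twist2 DM and 2.81% in GFP DM, and 4.36% in Twist2 GM and 4.78% in GFP GM. Per kilobase of the gene's median transcript length, the Igfbp5 level was 3278 CPM per kb in Twist2 DM, above 752 for Igfbp3, 210 for Igfbp2 and 140 for Igfbp7. In Twist2 GM the order was Igfbp2 (168 CPM per kb), Igfbp5 (158), Igfbp7 (50.2) and Igfbp3 (22.9). The first 2 of these change places when the longest transcript is used, with 135 CPM per kb for Igfbp5 and 127 for Igfbp2.

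Igf1 encodes IGF-I. Its gene (87858265 to 87937042, plus strand of chromosome 10) overlaps the antisense gene Igf1os. Its level was low in all libraries, with 22.0 CPM in Twist2 DM and 51.3 CPM in GFP DM, and 1.26 CPM (14 reads) in Twist2 GM and 14.7 CPM (143 reads) in GFP GM. The level was 2.33-fold lower with Twist2 in DM (log2 ratio -1.19, counting interval -1.44 to -1.004) and 11.6-fold lower in GM. With so few reads the log2 ratio in GM, -2.79 with the pseudocount, has a counting interval of -4.44 to -2.74. Unlike Igfbp3 and Igfbp5, Igf1 was lower with Twist2 in both media.

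Igf2, the gene of IGF-II, is no member by the rule but the ligand that was far more abundant. It stood at 4986 CPM in Twist2 DM and 8642 CPM in GFP DM, and at 211 CPM in Twist2 GM and 1252 CPM in GFP GM. Per kilobase of median transcript length Igf2 exceeded Igf1 in every library, by 5204 to 16.1 CPM per kb in Twist2 DM. The log2 ratio of Igf2 was -2.56 with Twist2 in GM (counting interval -2.63 to -2.50) and -0.79 in DM. Annotated genes overlap it too, Igf2os, Mir483 and Gm49394 among them.

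The receptors were within 2-fold between the viruses in both media. Igf1r (67952827 to 68233668, plus strand of chromosome 7) had 127 CPM in Twist2 DM and 85.2 CPM in GFP DM, and 214 CPM in Twist2 GM and 224 CPM in GFP GM. Igf2r (12682406 to 12769664, minus strand of chromosome 17, overlapping the noncoding gene Airn) had 457 CPM in Twist2 DM and 262 CPM in GFP DM, and 61.5 CPM in Twist2 GM and 68.9 CPM in GFP GM. In GM the log2 ratio of Igf1r was -0.07 (counting interval -0.15 to 0.017) and that of Igf2r was -0.16 (counting interval -0.32 to -0.0065, which leaves out 0). The sign of either turned with size factors, at 0.17 for Igf1r and 0.078 for Igf2r. In DM the log2 ratios of Twist2 over GFP were 0.57 for Igf1r, which turned to -0.03 with scaling to reads outside the table, and 0.80 for Igf2r.

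Counted over the members, Twist2 DM over GFP DM had 3 at least 2-fold higher (Igfbp3, Igfbp7 and Igfbp5) and 1 lower (Igf1), where 25.4% of the 3437 genes with at least 10 CPM in either library were higher and 25.2% lower. Twist2 GM over GFP GM had 0 higher and 4 lower (Igfbp5, Igf1, Igfbp3 and Igfbp2), where 5.21% of 3514 genes were higher and 10.6% lower. The median log2 ratio of the 7 members was 0.80 in DM and -1.12 in GM, beside -0.06 and -0.10 over all listed genes. Nothing is read from these counts, since the members were chosen with these values known. The share of higher genes depends on scaling: with libraries scaled to the reads outside the table, 508 genes were higher and 1550 lower in DM, in place of 873 and 867. With median-of-ratios size factors 268 were higher and 238 lower in GM, in place of 183 and 372, and Igfbp2 stood within 2-fold there (-0.88).

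A gene both 2-fold lower with Twist2 in GM and 2-fold higher with Twist2 in DM was uncommon: 33 of 3191 genes, or 1.03%, did this, and Igfbp3 and Igfbp5 were 2 of them. Igfbp3 was picked for its pattern in these libraries, and the members were chosen with these values known. Their place among the 33 genes and their ranks are therefore a description and lend no support. Igfbp3 had the second largest and Igfbp5 the sixth largest gap between the ratios among these 33 genes, after Mest, an imprinted gene, at the top.

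**Figure D2:**
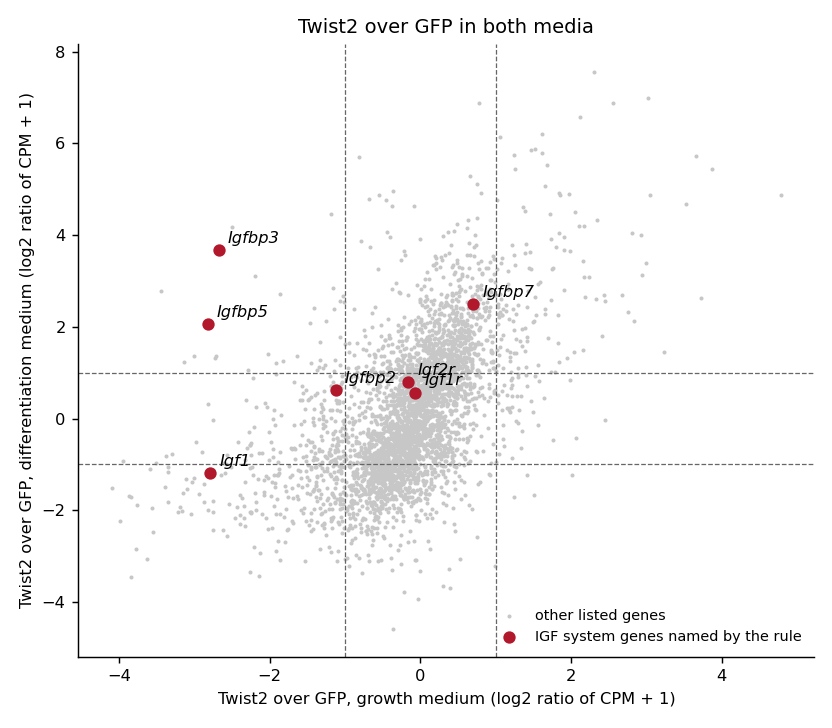
Log2 ratio of CPM + 1 of Twist2 over GFP in growth medium (x axis) and in differentiation medium (y axis); each point is a listed gene (Twist2 itself is left out), members are red and dashed lines mark 2-fold. Igfbp3 (-2.68 and 3.67) and Igfbp5 (-2.82 and 2.07) lie in the sparse upper left, Igf1 (-2.79 and -1.19) lies at the lower left and Igfbp7 (0.70 and 2.49) at the upper right.

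Differentiation was then compared within each virus. In Twist2 cells 5 members were at least 2-fold higher in DM than in GM and 0 were lower, where 26.5% of 3715 genes were higher and 24.5% lower. These were Igfbp3 (32.8-fold; log2 ratio 5.01, counting interval 4.91 to 5.16), Igfbp5 (20.7-fold; 4.37, interval 4.34 to 4.41), Igf1 (3.34), Igf2r (2.87) and Igfbp7 (1.47). In GFP cells 2 were higher (Igf2r at 1.91 and Igf1 at 1.74) and 3 lower (Igfbp2 at -1.42, Igf1r at -1.38 and Igfbp3 at -1.34), where 32.6% of 3694 genes were higher and 40.9% lower. Igfbp5 (-0.51) and Igfbp7 (-0.32) were within 2-fold in GFP cells.

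The lower calls in GFP cells depend on scaling. Igfbp3 moved to -0.99 with size factors, -0.94 when centred on the median of listed genes and -0.55 with scaling to reads outside the table, where 0 members were 2-fold lower. That last scaling also turned Igfbp5 to 0.29 and Igfbp7 to 0.45 in GFP cells. The listed genes took 65.1% of reads in GFP DM and 39.3% in GFP GM.

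The differentiation response of Igfbp3 was larger in Twist2 cells by 6.35 on the log2 scale, the third largest such gap of all 3760 listed genes. On the reads without the pseudocount the gap was 6.38, with a counting interval of 6.22 to 6.54. The gap of Igfbp5 was 4.88, that of Igfbp7 1.79, of Igfbp2 1.74 and of Igf1 1.61, and 25.5% of listed genes had a gap of at least 1 in this direction. For Igf2r (0.96) and Igf1r (0.63) it was smaller. All 7 gaps were positive, but with a median of 0.19 over all listed genes most of those were positive too, so nothing is read from that count. With scaling to reads outside the table the gap was 0.42 for Igf2r and 0.097 for Igf1r. Igf1 dropped under 1 with a pseudocount of 5 CPM and with scaling to reads outside the table, at 0.59 at the lowest.

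**Figure D3:**
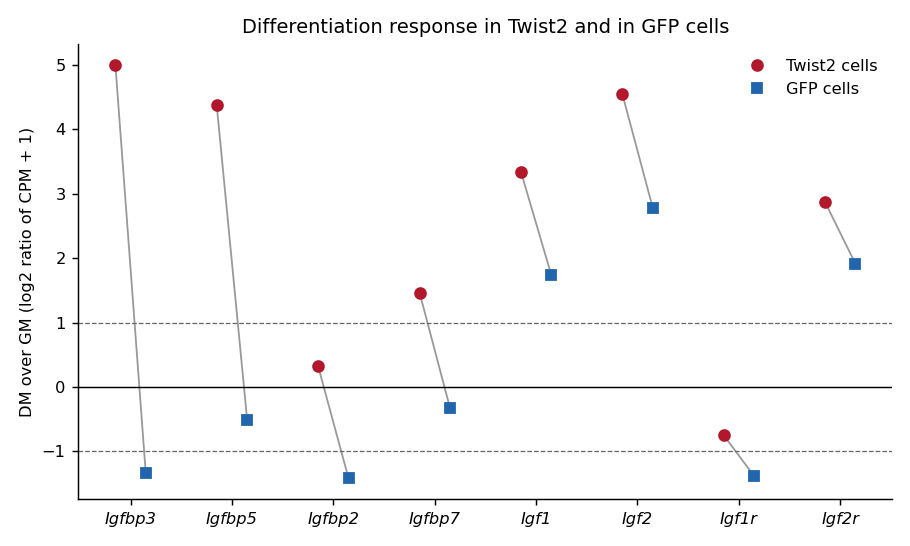
Log2 ratio of CPM + 1 of DM over GM in Twist2 cells (circles) and in GFP cells (squares) for the 7 members and Igf2; lines join the values of a gene and dashed lines mark 2-fold. The lines of Igfbp3 (5.01 and -1.34) and Igfbp5 (4.37 and -0.51) are the longest, while Igf1, Igf2 and Igf2r are higher in DM with either virus.

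The rest of the IGF system was read from 7 lists with 127 names, of which 48 genes are listed; older and newer symbols count apart, Htra1 is on 2 lists, and genes outside the table were not analysed. Counts here use the same 2-fold limit with no minimum CPM, a rule by which 26.6% of all 3760 listed genes were higher and 23.1% lower with Twist2 in DM, and 4.89% were higher and 11.5% lower in GM. Each list's count stands against these shares, and no list was tested. Of 12 listed genes of IGFBP proteases and their inhibitors, out of 25 names, 10 were higher with Twist2 in DM and 0 lower (median log2 ratio 2.72, beside -0.06 for all listed genes), and these counts were the same under all 5 alternative settings. In GM 3 were higher and 1 lower (median 0.60). Plat, the tissue plasminogen activator, stood at 156 CPM in Twist2 DM and 0.650 CPM (6 reads) in GFP DM, a log2 ratio of 6.58 on CPM + 1. Without that added 1 it was 241-fold higher, and the counting interval of the log2 ratio, taken on the reads, was 6.79 to 9.36. Mmp2, a matrix metalloproteinase, stood at 109 CPM in Twist2 DM and 1.52 CPM in GFP DM (5.45). The metalloproteinase inhibitor Timp3 (4.46) was also higher in DM, and it was lower with Twist2 in GM (-1.18), as Igfbp3 was. Mmp19 (3.79) and Adam12 (2.80), whose products are known to cut IGFBP-3, and the serine protease gene Htra3 (2.77) were higher in DM as well. In GM Plat (2.11), Adam12 (1.91) and Mmp2 (1.26) were the higher genes and Timp3 the lower one; size factors left 0 lower there.

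Matrix and surface partners of the binding proteins were likewise mostly higher with Twist2 in DM: 6 of 8 listed genes, with 1 lower (median 2.64), where all listed genes had 26.6% higher and 23.1% lower. Fibronectin, Fn1, which binds IGFBP-3 and IGFBP-5, stood at 4685 CPM in Twist2 DM and 119 CPM in GFP DM (5.28). Tenascin C, Tnc, stood at 361 CPM in Twist2 DM and 2.06 CPM in GFP DM (6.89). Itgb3 (4.04), Thbs1 (2.86) and Cav1 (2.12) were higher and Ogn (-1.20) lower. In GM 2 of the 8 were higher, Itgb3 (1.84) and Cav1 (1.52), and 0 lower. With size factors 4 of the 8 were higher in GM, where 268 of 3429 genes with at least 10 CPM were.

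Signalling genes inside the cell were counted next. Of 7 listed receptor adaptors and kinases, out of 26 names, 0 were 2-fold different with Twist2 in DM and 1, Inppl1 (-1.09), was lower in GM. Neither count was stable: 4 were lower in DM with scaling to reads outside the table, and 0 were lower in GM with size factors or centring. With that scaling to reads outside the table, 1550 of 3500 genes with at least 10 CPM were lower in DM. Akt2, the kinase linked to insulin action, had 184 CPM in Twist2 DM and 335 CPM in GFP DM (-0.86). Pik3cd (-0.52) and Pik3r3 (-0.12), which encode a catalytic and a regulatory subunit of PI3-kinase, were within 2-fold too. Of 9 listed mTOR and FoxO genes, out of 28 names, 2 were higher and 5 lower with Twist2 in DM (median -1.20), where all listed genes had 26.6% higher and 23.1% lower. The lower ones were Rps6kb1, an S6 kinase (-1.84), the ubiquitin ligase genes Trim63 and Fbxo30 (both -1.68), the mTOR inhibitor Deptor (-1.59) and Rictor, a subunit of mTOR complex 2 (-1.20). Ddit4, which restrains mTOR, was the highest of that list (3.56), at 232 CPM in Twist2 DM and 18.7 CPM in GFP DM, and the related Ddit4l was also higher (1.37), though under 2-fold with a pseudocount of 5 CPM (0.87) and with scaling to reads outside the table (0.88). In GM 0 of the 9 were 2-fold different. That count rests on the pseudocount for Trim63, with 1 read in Twist2 GM and 9 reads in GFP GM. Its log2 ratio was -0.82, and -2.43 with a pseudocount of 0.1 CPM.

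Of 5 listed CCN and related genes with an IGFBP-type domain, 2 were higher with Twist2 in DM, Wisp2 (3.39) and Htra1 (1.89), and 2 in GM, Wisp2 (2.99) and Ctgf (1.33), where 26.6% of all listed genes were higher in DM and 4.89% in GM. Wisp1 (0.97) and Crim1 (0.71) were within 2-fold in DM. Among 4 other ligand, receptor and carrier genes, Lrp1 (2.28), an endocytic receptor that binds IGFBP-3, and Tmem219 (1.26), a reported IGFBP-3 receptor, were higher with Twist2 in DM, Tmem219 at 16.7 CPM in Twist2 DM and 6.39 CPM in GFP DM, which was under 2-fold with a pseudocount of 5 CPM (0.93) and with scaling to reads outside the table (0.73). Lrp2 (-2.58) was lower there, and in GM Igf2 was the single 2-fold lower gene of the 4. In DM 1 was higher and 2 lower with scaling to reads outside the table. Of 3500 genes with at least 10 CPM, 508 were higher and 1550 lower with that scaling. Of 9 names for IGF2 mRNA-binding proteins and linked imprinted genes, 4 are listed. These names do not cover every imprinted gene, and Igf2 and Igf2r are not among them. All 4 were lower with Twist2 in GM, where 11.5% of all listed genes were. They were Mest (-2.50), H19 (-2.25), which neighbours Igf2, Plagl1 (-2.02) and Peg3 (-1.20). In DM Mest (4.19) and Plagl1 (1.41) were higher, Peg3 (-1.22) lower and H19 (-0.53) within 2-fold. There, too, 1 was higher and 2 lower with scaling to reads outside the table. With size factors 3 of the 4 were lower in GM, where 238 of 3429 genes with at least 10 CPM were.

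**Figure D4:**
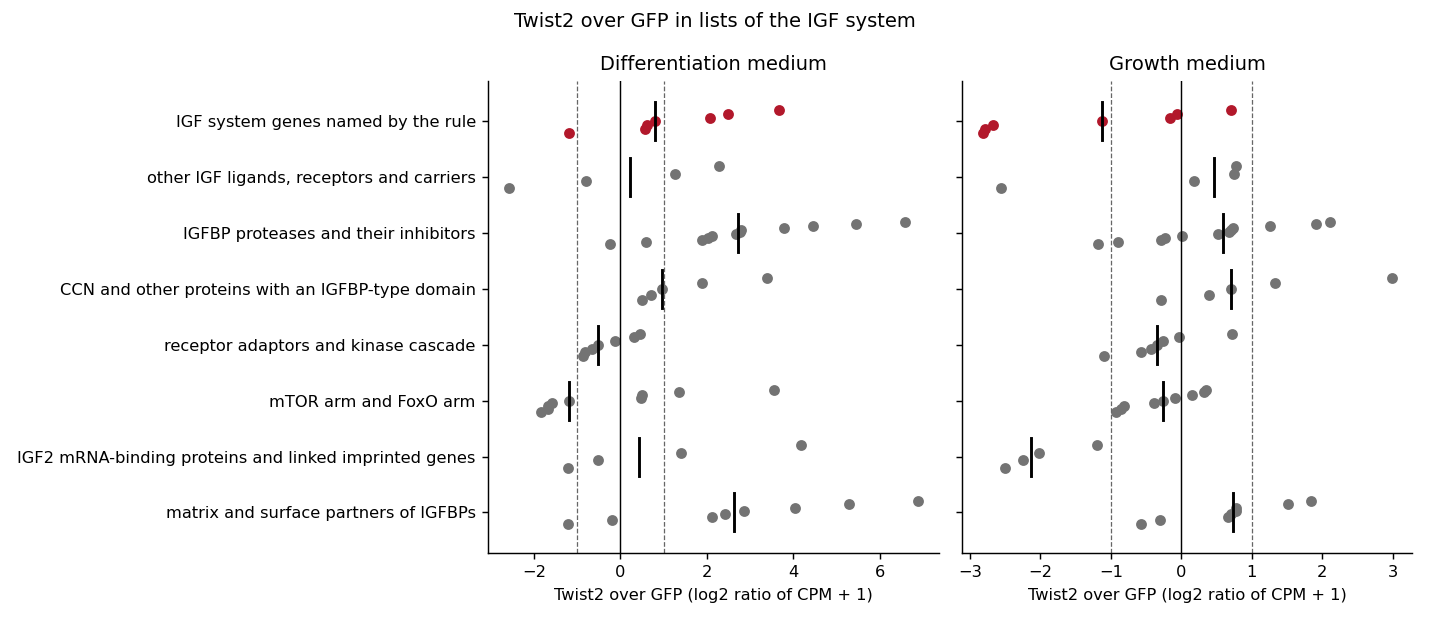
Log2 ratio of CPM + 1 of Twist2 over GFP in differentiation medium (left) and growth medium (right) for the members (red) and the 7 lists of the IGF system (grey); each point is a listed gene, black bars are medians and dashed lines mark 2-fold. In DM the proteases and inhibitors (median 2.72) and the matrix partners (2.64) lie to the right, and the adaptors and kinases (-0.52) near 0. In GM the list of IGF2 mRNA-binding proteins and linked imprinted genes (-2.14) lies to the left.

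The 8 listed genes nearest to Igfbp3 in pattern were found by the root mean square difference of log2(CPM + 1), centred on each gene's own mean, over the 4 libraries and 3759 other genes. Igfbp5 was the nearest, at 0.57. Sox8 (0.65), Pitx3 (0.76) and Dll1 (0.999), which encode 2 transcription factors and a Notch ligand, were among them, with Islr (0.93), Olfm1 (0.98), Chst3 (1.01) and Dync1i1 (1.01). Sox8 stood at 25.2 CPM in Twist2 DM and 2.82 CPM in GFP DM, and at 0.723 CPM in Twist2 GM and 17.7 CPM in GFP GM. All 8 were highest in Twist2 DM and lowest in Twist2 GM, though Dll1 stood at 67.9 CPM in Twist2 DM and 67.6 CPM in GFP GM. When Pearson's correlation over the 4 libraries was used instead, 3 of the 8 remained among the first 8, Pitx3, Chst3 and Igfbp5.

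**Figure D5:**
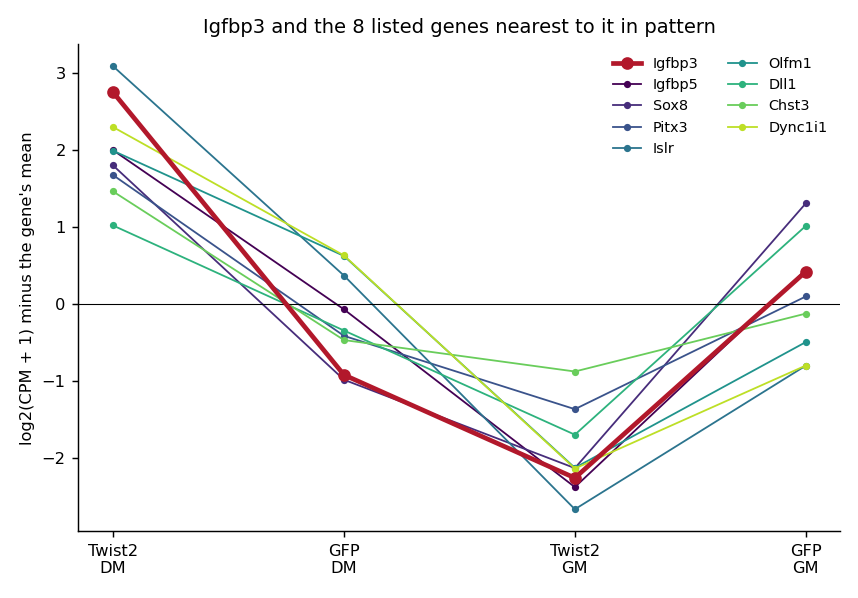
Log2(CPM + 1) minus the gene's mean over the 4 libraries, for Igfbp3 (thick red line) and the 8 listed genes nearest to it (thin lines). Igfbp3 and all 8 are highest in Twist2 DM and lowest in Twist2 GM, and Islr, Olfm1 and Dync1i1 differ most from Igfbp3 in lying lower in GFP GM than in GFP DM.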

How the data were processed

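Total RNA of 4 groups was sequenced, 1 library per group. Per the submitters' processing notes, which give no roles, the tools included DESeq2 1.6.3 and TopHat2 2.0.0, with the build GRCm38 (mm10). Neither the annotation, the read counter nor its strand setting was named. The deposited expression values are CPM, a gene's reads scaled to a common library total. The deposited log2 ratio columns, against GFP GM per the file headers, equal log2 of the ratio of CPM + 1 within 1.3e-11 and were used for that check and for the table's selection.

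Every CPM value was a whole multiple of 1 read within 0.01 reads (100% of values), which gave reads and library totals. Log2 ratios used CPM + 1, and a gene was called at 2-fold where its higher library reached 10 CPM. Exact conditional binomial (Clopper-Pearson) 95% intervals for ratios and exact Poisson intervals for levels were computed from the reads; the interval of a gap between responses is a normal approximation. No test was planned or run, and no count model was fitted. The calculation was checked on simulated counts. Positions and transcript lengths are from GENCODE M21 (GRCm38) and promoter sequences from RefSeq (GRCm38.p6).

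Genes, lists, rules and alternatives were chosen with earlier results of these data known. Named genes are the members, Twist2, up to 6 genes of each list with the largest ratios among those 2-fold different, and the 8 genes nearest to Igfbp3; other genes were named for neighbourhood or as cell markers. Some genes that the rule names are not reported here. Alternatives were pseudocounts of 0.1 and 5 CPM, 3 other scalings, no minimum CPM, the longest transcript and another measure of likeness. Python 3.11.15 with pandas 2.3.3, NumPy 2.4.6, SciPy 1.17.1 and Matplotlib 3.10.9 was used.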

Additional observations from a re-analysis of the deposited data

Results flagged for a closer look

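Among the members and the named genes of the lists, some stood at least 2-fold apart in opposite directions under the same contrast in 2 groups. None of these differences was tested, since each group had 1 library, and no cause was weighed. Igfbp3 was higher with Twist2 in DM (log2 ratio 3.67) and lower with Twist2 in GM (-2.68), a difference of 6.35; by the same 4 values its differentiation response was 5.01 in Twist2 cells and -1.34 in GFP cells. Igfbp5 was higher with Twist2 in DM (2.07) and lower in GM (-2.82), a difference of 4.88. Timp3 (4.46 in DM and -1.18 in GM, difference 5.64), Mest (4.19 and -2.50, difference 6.69) and Plagl1 (1.41 and -2.02, difference 3.43) also turned round between the media. One side fell under 2-fold for Timp3 in GM with size factors (-0.94) and for Plagl1 in DM with scaling to reads outside the table (0.82).

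Genes whose differentiation response had opposite directions in Twist2 and in GFP cells were Mest (1.97 in Twist2 cells and -4.72 in GFP cells), Timp3 (2.62 and -3.01), Plat (1.56 and -2.90, difference 4.46), Ddit4 (1.92 and -1.31, difference 3.23), Mmp19 (1.77 and -1.28, difference 3.05) and Lrp2 (-1.16 and 2.16, difference -3.33). Other settings took one side of 3 of them under 2-fold. In GFP cells Ddit4 stood at -0.97 with size factors, -0.91 with centring and -0.54 with scaling to reads outside the table, and Mmp19 at -0.95, -0.87 and -0.55 in these settings and at -0.97 with a pseudocount of 5 CPM. In Twist2 cells Lrp2 stood at -0.84 with a pseudocount of 5 CPM, -0.92 with scaling to reads outside the table and -0.94 with centring. Igfbp3 in GFP cells did likewise, with values in the part on processing.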

How the results depend on the processing

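Of the 35 log2 values of the 7 members (4 comparisons and the gap between responses), 30 kept their sign and 30 their side of the 2-fold limit under all 5 alternative pseudocounts and scalings; none of the 23 values past 2-fold changed sign. Scaling to the reads outside the table moved the Igfbp3 values to 3.08 (Twist2 DM over GFP DM), -0.55 (GFP DM over GFP GM), 5.26 (Twist2 DM over Twist2 GM) and 5.80 (gap). Size factors moved them to -2.43 (Twist2 GM over GFP GM), -0.99 (GFP DM over GFP GM) and 6.04 (gap), and centring to -0.94 (GFP DM over GFP GM), 5.23 (Twist2 DM over Twist2 GM) and 6.17 (gap). The Igfbp3 call in GFP cells thus ended under each of these scalings.

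Members 2-fold lower in GFP DM over GFP GM numbered 0 with scaling outside the table and 1 with centring, in place of 3. Counts of listed genes past 2-fold moved by over 1.5 times in few settings. Outside-table scaling gave 508 higher and 1550 lower (Twist2 DM over GFP DM) and 654 lower (GFP DM over GFP GM, with 1491 higher); size factors gave 238 lower (Twist2 GM over GFP GM) and 939 lower (GFP DM over GFP GM, with 1325 higher), and centring gave 930 lower there, with 1343 higher, in place of 1205 higher and 1511 lower. The median of all genes shifted by at most 0.78 (GFP DM over GFP GM, outside-table scaling). In Twist2 DM over Twist2 GM, 1218 were higher and 613 lower with that scaling, and 1197 and 655 with centring, in place of 984 and 911. The cause was not tested beyond the scaling itself.

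No paired analysis was possible because each group had 1 library, and no replicate could be left out. Levels per kilobase fall with the longest transcript, most for Igf2r, from 569 to 51.4 CPM per kb in Twist2 DM. Depth limits Igf1 in Twist2 GM (14 reads).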
